A study of Mus musculus with 9 samples.

Results

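The S100 proteins are a family of small proteins, most of which bind calcium. Of their genes, 6 (S100a4, S100a6, S100a8, S100a9, S100a10 and S100a11) were followed here through the bone marrow of lupus-prone mice and their parent strains. They were picked out by gene symbol and are 6 of the 31053 genes counted. Single-cell RNA sequencing libraries had been made from the femur marrow of 9 female mice, 1 library per mouse, with 3 mice in each of 3 strains. The New Zealand Black (NZB) and the New Zealand White (NZW) are inbred parents, and their first-generation cross, New Zealand Black-White F1 (NZBWF1), is a model of spontaneous lupus. All mice came from 1 supplier in 1 delivery, ate standard chow and were studied at 9 to 10 weeks of age, so each strain was seen at a single age and in females only. The paper reports a lower average cell viability for NZB than for the other strains, and no strain difference in the quality of sequenced cells. The part of viability in the strain differences below was not tested. The mouse is the unit of every comparison, and the replicates are separate mice.

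S100 proteins pair up, and most of them, but not all, change shape when calcium binds to their EF-hand loops, which lets them grip partner proteins. S100a8 and S100a9 join into calprotectin, which makes up much of the cytosolic protein of neutrophils, holds back zinc and manganese from microbes, and acts outside the cell on receptors such as Tlr4. S100a10 binds Anxa2 at the plasma membrane, S100a11 binds Anxa1, S100a6 binds Cacybp and annexins, and S100a4 binds the non-muscle myosin heavy chain Myh9. Transcripts were measured here and proteins were not.

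All 6 genes lie on chromosome 3 in build mm10, within a stretch that holds 14 S100 genes of the annotation. S100a4 (chr3:90603771-90606045, plus strand), S100a6 (chr3:90612882-90624181, plus strand), S100a8 (chr3:90668978-90670035, plus strand) and S100a9 (chr3:90692632-90695721, minus strand) are near neighbours. S100a11 (chr3:93520488-93526287, plus strand) and S100a10 (chr3:93555080-93564643, plus strand) lie together further along. The exons of S100a4 overlap those of Gm42674 on the same strand, so how the counting divided reads between them is uncertain, and S100a4 values carry that limit throughout. The bases before the starts are shown because neighbours on the chromosome differed in where they were expressed. Start sites were found in the RefSeq promoter table (GRCm38.p6) for 5 of the 6 members, all but S100a10. The RefSeq start of S100a8 lies downstream of the start given above, so its window falls inside the gene's bounds. Each line gives the 30 bases from 45 to 16 bases before the RefSeq start, 5′ to 3′ on the strand of the gene, with the letters TATAAA in capitals where they occur.
S100a4, chr3:90603725-90603754, plus strand: agggcctggcagggTATAAAtaggtcagat
S100a6, chr3:90612849-90612878, plus strand: tttaaggacactgctctcgggctggcagaa
S100a8, chr3:90669026-90669055, plus strand: ggccaagctttcctcTATAAAagcagctga
S100a9, chr3:90695737-90695766, minus strand: aagcaatcttccccgagataaccatgtatc
S100a11, chr3:93520451-93520480, plus strand: cacagcctgagtcaggctgaggggcgggac
The letters TATAAA, searched on the strand of the gene, stood in this window for S100a4 and S100a8 and for 702 of 32851 promoters in the table (2.14%). Such a match describes the letters and not a used site.

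After quality filtering, 39051 cells were kept, 2455 to 5684 per mouse, with 8106539 to 18663189 unique molecular identifiers (UMIs, 1 per captured transcript) per mouse and a median of 2182 to 2536 UMIs per cell across the mice. Each cell was placed in a class by counting UMIs of marker genes, none of them an S100 gene. Cells that passed both the precursor gate and the neutrophil or monocyte gate were kept. They went to the class with more marker UMIs relative to its minimum, as did cells that passed the T and NK gates. Fixed precedence settled some other overlaps, such as nonclassical over other monocytes and plasma over B cells. Cells that still passed the gates of 2 lineages, where doublets would fall, were left out (3374 cells). A class is therefore a range of marker counts, and raising every minimum by a factor of 2 would move 60% of plasmacytoid dendritic cells, 31.3% of mature neutrophils and 18.4% of non-dividing monocytes out of their class. Of the 68444 called barcodes, 1118 carried 1 of 557 sequences that occurred in at least 2 libraries. Levels are the summed UMIs of a gene in a class of a mouse, per 1000000 UMIs of that class and mouse (CPM). A rise between classes is therefore one of share and need not be one of UMIs per cell. Median depth was 3410 UMIs in dividing and 1746 in non-dividing monocytes, and 3588 in dividing and 2235 in non-dividing immature neutrophils. In the 17 classes with enough mice, 14 to 17 classes per gene passed the filter on low counts for S100a6, S100a8, S100a9, S100a10 and S100a11 and 7 for S100a4, giving 86 tested pairs of a gene and a class.

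S100a8 and S100a9 were overwhelmingly transcripts of neutrophils. S100a8 stood at 134585 ± 9565 CPM (SD, n = 9 mice) in non-dividing immature neutrophils, 127333 ± 7215 in mature neutrophils and 112573 ± 10814 in dividing immature neutrophils. S100a9 stood at 200045 ± 6958, 198754 ± 8443 and 171509 ± 7785 CPM in the same classes. Together they supplied 33.5%, 32.6% and 28.4% of all UMIs of these classes, about 1 transcript in every 3. In granulocyte-monocyte precursors and promyelocytes, the stage before, their joint share was 1.58%, and in every other tested class its mean was 0.036% to 0.240%. The top 5% of precursors and promyelocytes carried a mean of 44.2% of the S100a8 UMIs and 44.7% of the S100a9 UMIs of that class. Cells that also passed the neutrophil gate could remain in this class, and their part in these values was not tested. From precursors and promyelocytes to dividing neutrophils S100a8 rose by 4.36 ± 0.48 and S100a9 by 4.14 ± 0.38 on the log2 scale (SD over mice), in 9 of 9 mice each (exact sign-flip permutation test within mice on log2(CPM + 10), two-sided, p = 0.003906, the smallest that 9 mice allow, adjusted p = 0.008113 over the stage steps). The step from dividing to non-dividing immature neutrophils was small, 0.26 and 0.22, and was also upward in 9 of 9 mice for both. In mature neutrophils S100a8 was lower by 0.08 in all 9 mice, while S100a9 did not pass (exact sign-flip test, adjusted p = 0.5475).

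**Figure D1:**
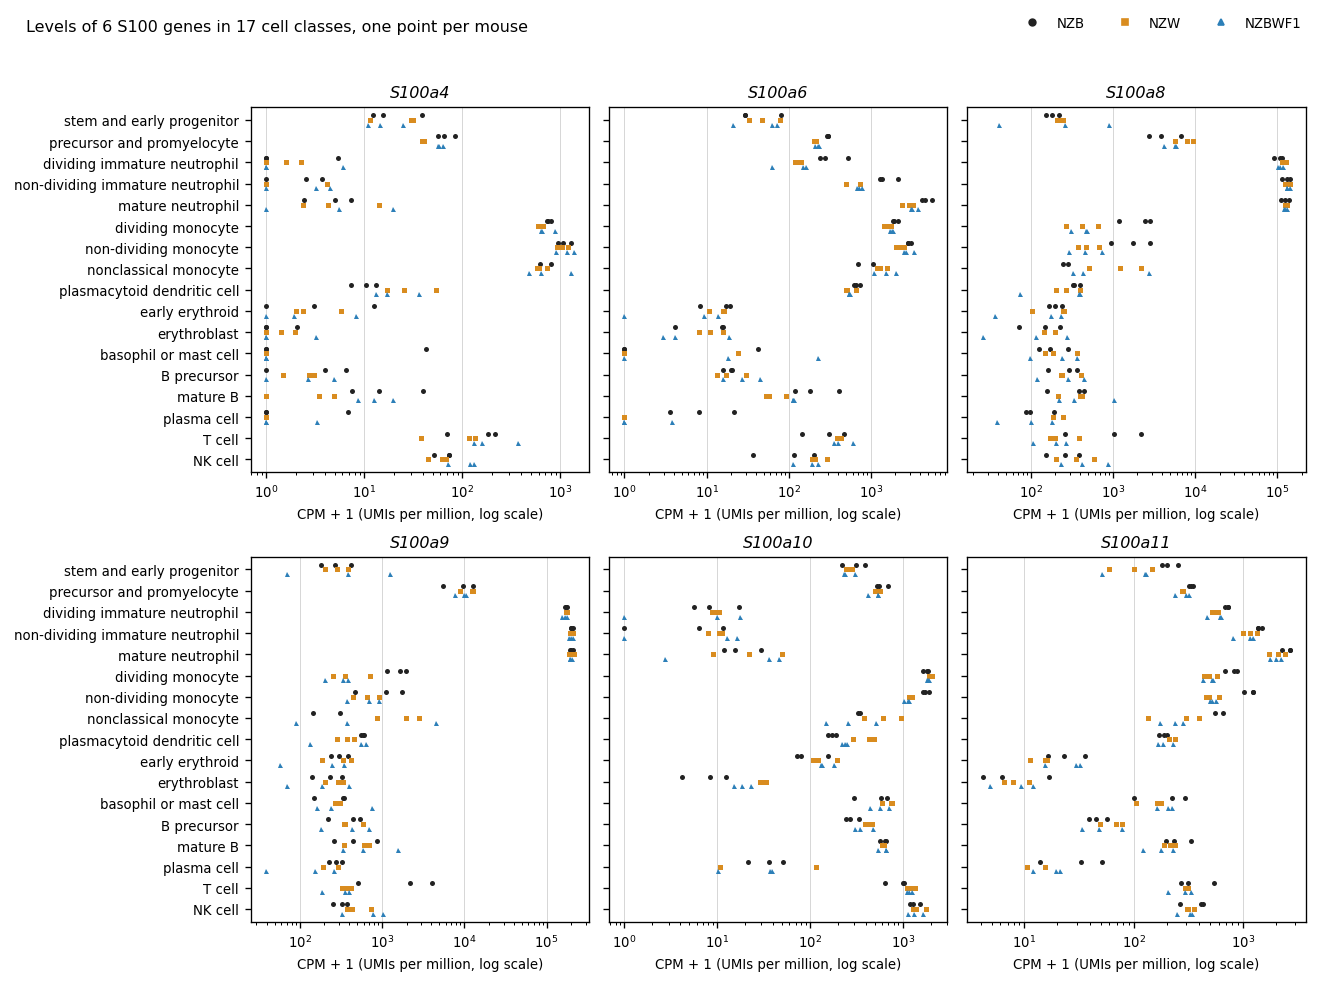
Level of each S100 gene (CPM + 1, log scale on the horizontal axis) in each of 17 marker-gated classes (rows), with 1 point per mouse marked by strain. S100a8 and S100a9 are highest in the 3 neutrophil classes, S100a4 is highest in monocytes, S100a10 in monocytes, NK and T cells, and S100a6 and S100a11 in mature neutrophils.

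RNA free in the droplets carried the same pair of genes. In barcodes with fewer than 100 UMIs, which hold no cell, S100a8 stood at 19200 to 39266 CPM and S100a9 at 27998 to 57745 CPM across the 9 mice. With every cell thinned to 1000 UMIs, 14.4% of erythroblasts, 14.6% of plasma cells and 19.4% of B precursors still held an S100a8 UMI. These are classes that should lack the transcript, and their median depths before thinning were 8801, 9831 and 2115 UMIs. Levels of S100a8 and S100a9 at or near those of erythroid and B classes are therefore read here as background. Immature neutrophils held an S100a8 UMI in 100% of cells at the same depth. For S100a6, by contrast, 0.552% of thinned erythroblasts and 1.99% of thinned B precursors held a UMI.

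S100a6, the calcium sensor that binds Cacybp, climbed from the dividing stage of the neutrophil line onward. Its level was 242.2 ± 41.6 CPM in precursors and promyelocytes, which exceeded dividing neutrophils in 8 of 9 mice without passing (exact sign-flip test, adjusted p = 0.0791). It was 199.9 ± 136.0 CPM in dividing immature neutrophils, 994.4 ± 518.8 in non-dividing immature neutrophils and 3654.9 ± 974.2 in mature neutrophils, which were its highest class. The steps were 2.34 ± 0.46 and 1.97 ± 0.31 on the log2 scale, each upward in 9 of 9 mice (adjusted p = 0.008113, exact sign-flip test). Monocytes came next, with 2694.8 ± 388.7 CPM in non-dividing and 1788.5 ± 193.9 in dividing monocytes. Mature neutrophils over non-dividing monocytes, and these over dividing monocytes, were each ordered alike in 9 of 9 mice (exact sign-flip test, adjusted p = 0.01974 over the 96 neighbouring pairs of all members).

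S100a11, an annexin partner at membranes, rose at every step of the neutrophil line. From precursors and promyelocytes (299.0 ± 33.8 CPM) to dividing (613.9 ± 87.9), non-dividing immature (1217.7 ± 210.0) and mature neutrophils (2214.4 ± 355.1) it gained 1.01, 0.97 and 0.86 on the log2 scale, in 9 of 9 mice at each step (exact sign-flip test, adjusted p = 0.008113). Non-dividing monocytes held 736.7 ± 330.9 CPM and dividing monocytes 598.4 ± 164.3. Neither class differed from dividing neutrophils beyond the spread (exact sign-flip test, adjusted p = 0.5775 and 0.6696), while non-dividing exceeded dividing monocytes in 8 of 9 mice (0.23 ± 0.25 on the log2 scale, adjusted p = 0.01318 over the stage steps).

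**Figure D2:**
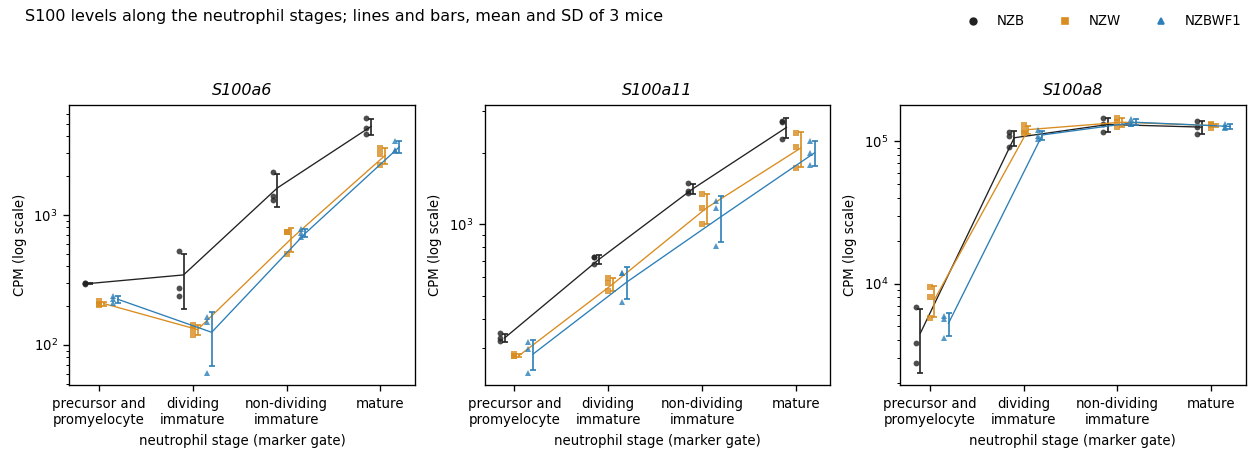
Levels of S100a6, S100a11 and S100a8 (CPM, log scale) at 4 successive neutrophil stages, with 1 point per mouse, and lines and bars for the mean and SD of the 3 mice of each strain. S100a11 climbs at every step, S100a6 at the last 2 steps with NZB on top throughout, and S100a8 makes its main step between precursors and dividing immature neutrophils.

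S100a10 and S100a4 were low in neutrophils. S100a10, the partner of annexin A2, was highest in dividing monocytes (1891.7 ± 117.5 CPM), followed by NK cells (1407.0 ± 215.0), non-dividing monocytes (1367.5 ± 319.6) and T cells (1107.2 ± 202.7). The first of these exceeded NK cells in 9 of 9 mice (exact sign-flip test, adjusted p = 0.01974), while neither NK cells and non-dividing monocytes nor non-dividing monocytes and T cells differed beyond their spread (adjusted p = 0.8527 and 0.4773). From precursors and promyelocytes (545.2 ± 72.1 CPM) to dividing neutrophils (8.82 ± 5.21 CPM) S100a10 fell by 4.93 on the log2 scale in 9 of 9 mice, the steepest fall of any member at any stage tested. Between early erythroid cells (129.9 ± 41.8) and erythroblasts (18.3 ± 10.2) it fell by 2.34, again in 9 of 9 mice (exact sign-flip test, adjusted p = 0.008113).

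S100a4, a binder of non-muscle myosin, was above all a monocyte transcript. It stood at 1101.6 ± 162.8 CPM in non-dividing, 706.1 ± 92.6 in dividing and 718.0 ± 250.4 (n = 8) in nonclassical monocytes, at 157.0 ± 97.5 in T cells, and at 1.26 to 5.86 CPM in the 3 neutrophil classes. It rose from dividing to non-dividing monocytes by 0.63 in 9 of 9 mice (exact sign-flip test, adjusted p = 0.01974 among neighbouring pairs), while dividing and nonclassical monocytes did not differ beyond their spread (adjusted p = 0.9667). Of the 16 neighbouring pairs of classes in each member's order, 3 passed for S100a4, 6 for S100a6, 4 for S100a8, 3 for S100a9, 3 for S100a10 and 6 for S100a11.

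Likeness of pattern was measured as Pearson's r of mean log2(CPM + 10) over the 17 classes, among 6270 genes, and the classes share libraries, depth and free RNA, so r is a description only. S100a8 and S100a9 were each other's nearest gene (r = 0.9965). Next to S100a8 came Ngp, Wfdc21, Cebpe and Camp (r = 0.9809 to 0.9884) and next to S100a9 Ngp, Wfdc21, Camp and Lrg1 (r = 0.9855 to 0.9937). Of these, Ngp and Camp encode secondary granule proteins and Cebpe a regulator of that granule stage. Ngp, Camp and Cebpe were also gate markers, so their pattern over the classes was set in part by the gating. The genes nearest to S100a4 were Prkx, Ms4a6d, Ms4a4c, Ddhd1 and Arhgap26 (r = 0.9078 to 0.9388). Those nearest to S100a6 were Slfn2, Rit1, Hpcal1, Lyst and Myd88 (r = 0.9178 to 0.9612), and to S100a11 Pstpip1, Ostf1, Twf2, Gpsm3 and Lasp1 (r = 0.9453 to 0.9512), several of them adaptors or regulators of the actin cytoskeleton. S100a10 was nearest to Tmsb10, G3bp2, Psmb10, Cd48 and Esyt1 (r = 0.9111 to 0.9473). Among members, S100a6 and S100a11 had r = 0.866, and S100a10 had r = -0.5556 with S100a9.

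The strains were compared with edgeR's quasi-likelihood test on the summed UMIs of each class, in a fit over all genes, with Benjamini-Hochberg adjustment within the class and a threshold of 0.05 on the adjusted p, and fold changes from this fit are on the log2 scale with their standard error (SE). Between the parents, NZB against NZW, 17 of the 86 pairs of a member and a class were called, 13 higher and 4 lower in NZB, against 7.53% of all 87509 tests (32 of 86 had an unadjusted p under 0.05). The count was 11 without NZW 3 and 11 at a limit of 5% mitochondrial UMIs, where some pairs could no longer be tested. The median log2 fold change was 0.07 over the members' pairs and -0.01 over all tests. S100a6 was called in 6 of 14 classes and S100a11 in 3 of 14, always higher in NZB. S100a10 was called in 4 of 17 classes, higher in 1 and lower in 3. S100a8 and S100a9 were each called in 1 of 17 classes and S100a4 in 2 of 7, once in each direction. Where strains are said below not to overlap, this describes the mice only. The share of all genes without overlap is not given here, and an exact permutation test of 3 against 3 mice gives such a separation p = 0.1.

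S100a6 separated the strains most plainly in neutrophils. In non-dividing immature neutrophils the 3 NZB mice had 1383.5, 2132.5 and 1303.6 CPM, the NZW mice 730.7, 498.2 and 736.1, and the NZBWF1 mice 774.5, 671.9 and 718.3. Every NZB mouse lay above every mouse of the other strains, which overlapped each other. NZB exceeded NZW by 1.44 (SE 0.18, adjusted p = 3.993e-05, background in this class 9.01%), a 2.72-fold difference. In mature neutrophils NZB had 4618.9, 5547.2 and 4178.6 CPM, NZW 2935.8, 2411.6 and 3244.9, and NZBWF1 3716.5, 3092.0 and 3148.4. NZB was again above both without overlap, by 0.90 over NZW (SE 0.16, adjusted p = 8.697e-04, background 7.74%). In dividing neutrophils the difference was of the same size but more variable, with NZB at 238.9, 521.7 and 272.1 CPM, NZW at 130.9, 119.7 and 141.6 and NZBWF1 at 60.98, 162.6 and 150.2, and it was not called (log2 1.51, SE 0.41, adjusted p = 0.08161).

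The share of cells with an S100a6 UMI differed in the same direction. With few UMIs of the gene per cell this share rises with the level, so it restates the difference and is not separate evidence. With cells thinned to 1000 UMIs, 50% to 64.6% of non-dividing immature neutrophils per NZB mouse held an S100a6 UMI, against 26.3% to 37.2% in NZW and 34.8% to 37.8% in NZBWF1. Without thinning the shares were 63.2% to 75.04%, 35.1% to 52.1% and 47.1% to 50.3%, at median depths of 2048 to 2852 UMIs. Mature neutrophil markers, a list of 6 genes with UMIs for all 6 in every strain, were also summed in this class. The sums were 1690.6 to 1944.6 CPM in NZB, 1388.4 to 2000.2 in NZW and 1738.1 to 1808.3 in NZBWF1, which overlap. Cells that passed the gate on this list had been placed in the mature class. The sum is thus limited by the gate in every strain and cannot show whether stage differed. The same list, which gates the mature neutrophils, overlapped there, at 17582 to 23017 CPM in NZB, 15931 to 19381 in NZW and 15819 to 24164 in NZBWF1. Free RNA held more S100a6 in NZB too, on average 1246.2 CPM against 838.2 in NZW and 899.6 in NZBWF1. With free RNA subtracted the differences of NZB from NZW were 1.45 and 0.90 in the 2 classes, and both were called (adjusted p = 9.979e-05 and 9.026e-04).

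By comparison the calprotectin pair did not separate the strains in neutrophils. S100a8 in mature neutrophils was at 139115, 125232 and 113342 CPM in NZB, at 131508, 130152 and 124690 in NZW and at 123774, 132718 and 125469 in NZBWF1. The strains overlapped, and in the 3 neutrophil classes the log2 difference of NZB from NZW lay between -0.12 and 0.14 for S100a8 (SE 0.10 to 0.12) and between 0.05 and 0.16 for S100a9 (SE 0.09 to 0.11), none called. The fit rescales the libraries by TMM normalization and CPM do not, so small differences can change sign between them. Mean CPM of S100a8 was lower in NZB than in NZW in all 3 classes, for example 125896 against 128783 in mature neutrophils. In precursors and promyelocytes, where both genes begin, S100a8 ranged from 2757.8 to 6836.5 CPM in NZB and from 5718.5 to 9420.6 in NZW, and the difference did not pass (log2 -0.88, SE 0.39, adjusted p = 0.2438).

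S100a11 differed between the strains in monocytes. In non-dividing monocytes NZB had 1019.4, 1244.4 and 1233.7 CPM, NZW 606.9, 489.3 and 454.0, and NZBWF1 496.8, 525.1 and 560.8. The lowest NZB mouse was well above the highest mouse of both other strains, which overlapped. NZB exceeded NZW by 1.18 (SE 0.12, adjusted p = 7.866e-12, background in this class 17.3%), a 2.26-fold difference. In dividing monocytes NZB had 689.3, 828.4 and 878.6 CPM, NZW 576.8, 491.7 and 436.2, and NZBWF1 431.2, 520.8 and 533.1, again without overlap between NZB and the others (log2 0.68 over NZW, SE 0.12, adjusted p = 9.717e-06, background 12.6%).

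At 1000 UMIs per cell, 63.6% to 68.7% of non-dividing monocytes per NZB mouse held an S100a11 UMI, against 36.1% to 42.6% in NZW and 37.1% to 41.5% in NZBWF1, while erythroblasts gave 0% to 2.67%. Unthinned, the monocyte shares were 87.7% to 90.9%, 49.7% to 64.6% and 55.0% to 60.2%, and the median depth was 2071 to 2522.5 UMIs per cell in NZB, above the 1458 to 1873.5 in NZW and overlapping the 1579 to 2176.5 in NZBWF1. Free RNA held a mean of 667.6 CPM of S100a11 in NZB, 437.0 in NZW and 452.5 in NZBWF1 (326.9 to 795.1 over the mice). With free RNA subtracted the differences of NZB from NZW were 1.18 in non-dividing and 0.68 in dividing monocytes, both called (adjusted p = 3.747e-12 and 1.093e-05). In the neutrophil line S100a11 was called higher in NZB at the dividing stage, at 677.3, 727.2 and 726.3 CPM against 563.2, 523.7 and 593.5 in NZW (log2 0.41, SE 0.11, adjusted p = 6.819e-03, background 9.62%), and the call was lost without NZW 2 (log2 0.36, adjusted p = 0.07907). The later stages gave 0.41 (adjusted p = 0.07497) and 0.45 (adjusted p = 0.1116), and whether the stages differ in this was not tested.

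**Figure D3:**
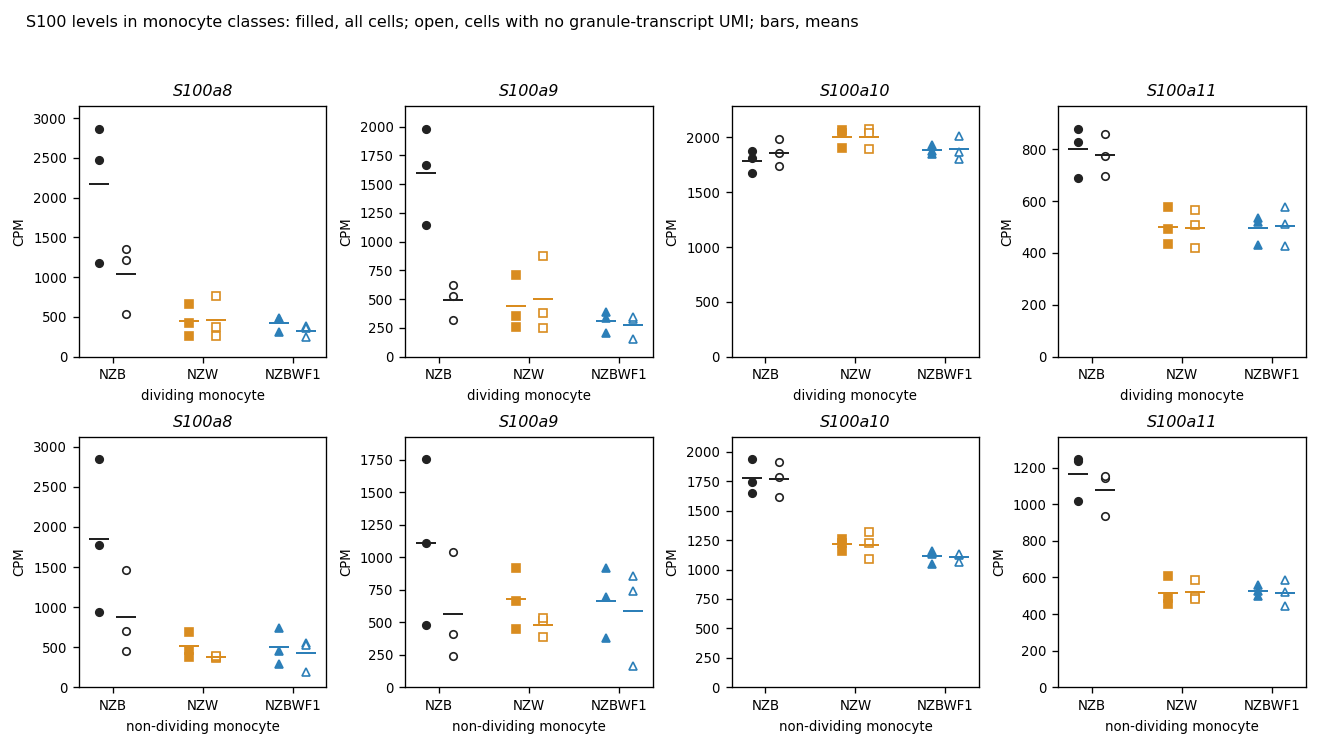
Levels of S100a8, S100a9, S100a10 and S100a11 (CPM) in dividing (upper row) and non-dividing monocytes (lower row), with 1 point per mouse and a bar for each mean, filled for all cells and open for cells without a UMI of Camp, Ngp, Ltf or Lcn2. S100a11 in NZB lies above both other strains in both classes, and S100a10 does so in non-dividing monocytes, with or without those cells, while the open S100a9 points of the strains overlap.

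The non-dividing monocytes of NZB also differed in markers of stage, and the part of this in the S100 values was not tested. Summed markers of granulocyte-monocyte precursors (6 of 6 genes with UMIs in each strain) stood at 836.2 to 1822.5 CPM in NZB, 430.2 to 545.4 in NZW and 165.6 to 493.6 in NZBWF1. Summed nonclassical markers stood at 25.1 to 71.3 CPM in NZB, 114.7 to 223.8 in NZW and 128.0 to 167.6 in NZBWF1 (5 of 5 genes with UMIs in NZB and NZW, and 3 of 5 in NZBWF1, where Eno3 and Cd300e were at 0). Summed monocyte markers (6 of 6 genes) were lower in NZB, at 6385.2 to 7445.9 CPM against 8282.6 to 8872.2 and 7898.5 to 9245.9. In dividing monocytes the precursor markers overlapped between NZB and NZW (1939.5 to 2426.5, 1870.8 to 2052.2 and 1420.5 to 1938.0 CPM in NZB, NZW and NZBWF1). So did the monocyte markers (5255.0 to 6412.9, 5655.6 to 5884.8 and 5211.5 to 5719.9). Immature neutrophil markers, given below, did not overlap between NZB and NZW there. The part of any of these in the S100a11 values was not tested.

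S100a8 and S100a9 were called higher in NZB dividing monocytes, and the calls were lost under several alternatives. In dividing monocytes S100a8 was at 1173.6, 2866.4 and 2472.2 CPM in NZB, 417.7, 657.8 and 264.3 in NZW and 310.7, 473.3 and 481.5 in NZBWF1. S100a9 was at 1147.5, 1980.7 and 1664.6 CPM in NZB, 257.1, 708.4 and 354.3 in NZW and 202.9, 385.2 and 333.4 in NZBWF1. Every NZB mouse exceeded all others for both genes, by 2.30 over NZW for S100a8 (SE 0.45, adjusted p = 0.02058) and by 1.87 for S100a9 (SE 0.42, adjusted p = 0.03279). The top 5% of these cells carried 28.03% to 44.69% of the S100a8 UMIs in NZB and 16.37% to 55.62% in NZW. For S100a9 they carried 45.55% to 64.45% in NZB and 18.15% to 61.54% in NZW. In non-dividing monocytes S100a8 was at 941.8, 2843.2 and 1771.0 CPM in NZB, 380.4, 684.1 and 471.1 in NZW and 293.2, 740.4 and 455.4 in NZBWF1. Every NZB mouse exceeded all others there too, while NZW and NZBWF1 overlapped, and the difference of NZB from NZW missed the threshold (log2 1.86, SE 0.50, adjusted p = 0.05256), and S100a9 did not pass (log2 0.73, adjusted p = 0.4556). The calls in dividing monocytes were lost with some mice left out, at similar folds. S100a8 lost its call without NZB 2, NZB 3, NZW 1 or NZW 3 (log2 2.01 to 2.27, adjusted p = 0.06311 to 0.07857), as did S100a9 (log2 1.62 to 1.86, adjusted p = 0.08473 to 0.1289), which also lost it without NZBWF1 2 or NZBWF1 3 (adjusted p = 0.05229 and 0.05931). With cells that passed the gates of 2 lineages kept, the differences were 0.68 and 0.09 (adjusted p = 0.5334 and 0.9357). In nonclassical monocytes the values lay the other way, with 20 to 36 cells per mouse in 8 mice. S100a8 there was at 287.1 and 243.6 CPM in NZB and 1239.9, 507.9 and 2207.0 in NZW, and S100a9 at 143.5 and 313.2 against 1936.0, 880.4 and 2837.6. NZB lay below NZW without overlap, and neither difference was called (log2 -2.35, SE 1.32, adjusted p = 0.6284, and -3.19, SE 1.85, adjusted p = 0.6388). With only 2 NZB mice such a separation carries little weight. The top 5% of these cells carried 47.4% to 74.6% of the S100a8 UMIs in NZW and 21.4% to 28.6% in the 2 NZB mice, and the share of cells with one at 1000 UMIs was 28.6% to 36.1% in NZW and 30% to 32.3% in NZB.

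Neutrophil transcripts moved with these values. The granule transcripts Camp, Ngp, Ltf and Lcn2 together averaged 418.0 CPM in NZB dividing monocytes against 144.1 in NZW and 141.6 in NZBWF1, and 535.6 against 220.9 and 214.2 in non-dividing monocytes. The full list of immature neutrophil markers (7 of 8 genes with UMIs, Chil3 at 0 in every strain) stood at 323.5 to 611.1 CPM in NZB dividing monocytes, 207.3 to 229.6 in NZW and 130.0 to 269.9 in NZBWF1, and at 499.6 to 729.0, 250.6 to 309.6 and 172.5 to 327.5 in non-dividing ones. Mature neutrophil markers (6 of 6 genes) stood at 347.7 to 484.6, 182.4 to 276.3 and 174.4 to 244.8 CPM in dividing monocytes. When monocytes holding any UMI of the 4 granule transcripts were left out, a choice made after these values were seen, 27.1% to 52.7% of NZB monocytes remained in a class, 56.8% to 74.95% of NZW and 52.6% to 78.1% of NZBWF1.

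In the remaining dividing monocytes S100a8 was at 531.5, 1219.4 and 1356.1 CPM in NZB and 374.8, 757.1 and 264.1 in NZW, which overlap, and neither S100a8 (log2 1.13, adjusted p = 0.2753) nor S100a9 (log2 -0.047, adjusted p = 0.9736) was called. The remaining non-dividing monocytes gave log2 1.19 for S100a8 (edgeR, adjusted p = 0.2057) and 0.22 for S100a9 (adjusted p = 0.8911), neither called. S100a11 was still called in both classes (0.62, adjusted p = 6.946e-04, in dividing and 1.02, adjusted p = 6.04e-09, in non-dividing monocytes), as was S100a10 in non-dividing monocytes (0.52, adjusted p = 6.029e-04). At 1000 UMIs per cell all dividing monocytes held an S100a8 UMI in 38.7% to 64.6% of cells in NZB, 17.5% to 32.5% in NZW and 23.2% to 33.0% in NZBWF1, and B precursors, the background class, in 14.7% to 22.9%, 19.4% to 22.3% and 11.8% to 24.0%. Unthinned shares in dividing monocytes were 70.8% to 85.1%, 57.0% to 72.4% and 49.3% to 62.2%.

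The ratio of S100a8 to S100a9 UMIs was higher than in neutrophils and free RNA in dividing monocytes of most mice and in non-dividing monocytes of NZB. It compares classes and not the amounts of the 2 transcripts, which may be captured unequally. The mean ratio was 0.656, 0.673 and 0.641 in the 3 neutrophil classes, 0.572 in precursors and promyelocytes, 0.708 in free RNA (0.612 to 0.758 over the mice) and 0.614 to 0.755 in the other classes with enough UMIs. Single mice in those classes reached the range of dividing monocytes. The highest were 1.19 in stem and early progenitors (NZW 2), 1.19 in NK cells (NZB 2), 1.07 in plasmacytoid dendritic cells (NZW 3) and 1.03 in T cells (NZW 3). Others in that range included NK cells of NZW 1 (0.954), mature B cells of NZB 2 (0.882), early erythroid cells of NZB 1 (0.808) and nonclassical monocytes of NZW 3 (0.778). In dividing monocytes it was 1.27 ± 0.31 (n = 9), and in each of the 9 mice but NZW 3 (0.746) it was above 0.92. In non-dividing monocytes the NZB ratios were 1.98, 1.62 and 1.60, those of NZW 0.854, 0.746 and 0.707, and those of NZBWF1 0.780, 0.803 and 0.654. The NZW and NZBWF1 ratios overlapped those of neutrophils and free RNA. NZB stood above the other strains without overlap, by 1.17 over NZW and 1.22 over NZBWF1 on the log2 scale, where an exact two-sided permutation test of 3 against 3 mice cannot go below p = 0.1 (p = 0.1, adjusted p = 0.4714 over 33 such tests). Other pairs without overlap, at the same exact p, were NZB below NZW in precursors and promyelocytes (log2 -0.51) and dividing neutrophils (-0.17), NZB below NZBWF1 in T cells (-0.25), NZW above NZBWF1 in precursors and promyelocytes (0.29), and NZB above NZBWF1 in B precursors (0.09). Without cells that held a granule transcript the ratio in non-dividing monocytes was 1.40 to 1.87 in NZB, 0.739 to 0.930 in NZW and 0.624 to 1.19 in NZBWF1, and in dividing monocytes 1.66 to 2.56, 0.690 to 1.51 and 1.04 to 1.58, so NZB did not overlap the others in either class.

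**Figure D4:**
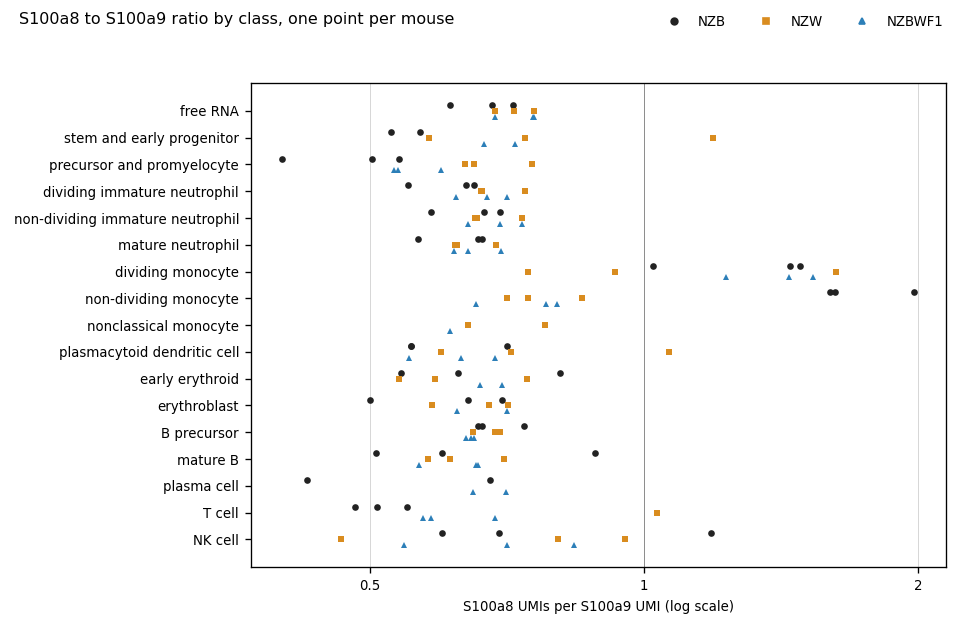
Ratio of S100a8 to S100a9 UMIs in each class and in free RNA (log scale), 1 point per mouse coloured by strain, for class and mouse pairs with at least 20 UMIs of each gene. Neutrophil classes lie at 0.550 to 0.740 and free RNA at 0.612 to 0.758, while dividing monocytes lie at 0.746 to 1.63 and NZB non-dividing monocytes at 1.60 to 1.98.

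S100a10 moved in opposite directions in different classes. In non-dividing monocytes it was higher in NZB, at 1647.2, 1935.7 and 1740.9 CPM, than in NZW, at 1259.0, 1158.4 and 1225.8, or NZBWF1, at 1045.3, 1159.8 and 1135.1. NZB lay above both without overlap (log2 0.55 over NZW, SE 0.10, adjusted p = 6.982e-05). In dividing monocytes, where the gene is most abundant, NZB had 1876.9, 1811.5 and 1673.9 CPM and NZW 2038.9, 2066.7 and 1903.7, and the difference, without overlap, was not called (log2 -0.17, SE 0.10, adjusted p = 0.3328).

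In plasmacytoid dendritic cells, the interferon-producing class, S100a10 was lower in NZB. NZB had 170.3, 188.0 and 157.1 CPM, NZW 437.1, 292.0 and 484.9, and NZBWF1 252.2, 221.2 and 235.5. The strains fell in 3 separate ranges with NZBWF1 between its parents, NZB below NZW by 1.19 (log2 -1.19, SE 0.14, adjusted p = 1.514e-12, background 8.63%). The share of these cells with a UMI at 1000 UMIs was 12.8% to 16.1% in NZB, 26.2% to 30.3% in NZW and 19.3% to 19.8% in NZBWF1, against 19.6% to 24.9%, 31.0% to 49.1% and 29.3% to 31.5% unthinned. Markers of division (8 of 8 genes with UMIs) were at 410.0 to 776.4, 759.8 to 2006.8 and 458.8 to 603.3 CPM and those of conventional dendritic cells (7 of 8, Xcr1 at 0) at 445.8 to 457.3, 633.2 to 700.8 and 446.4 to 609.5, and their part in the result was not tested.

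Erythroblasts and B precursors also had less S100a10 in NZB. In erythroblasts the levels were 3.16, 11.5 and 7.37 CPM in NZB, from 2, 11 and 7 UMIs, against 32.3, 28.6 and 28.2 in NZW and 17.4, 14.1 and 21.9 in NZBWF1, in 3 separate ranges (log2 -1.87, SE 0.31, adjusted p = 7.033e-05, background 4.74%). In B precursors they were 335.9, 246.3 and 270.1 CPM in NZB and 467.0, 393.1 and 445.5 in NZW, without overlap, while NZBWF1 spanned both at 342.8, 307.6 and 479.5 (log2 -0.65, SE 0.16, adjusted p = 0.01839, background 2.18%). This call was lost without NZB 2, NZB 3, NZW 1 or NZW 3 (log2 -0.65 to -0.59, adjusted p = 0.05618 to 0.1626).

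The other calls between the parents were of low transcripts or of small size. S100a4 in precursors and promyelocytes was at 83.2, 64.0 and 55.3 CPM in NZB, 39.9, 37.5 and 39.4 in NZW and 56.6, 55.1 and 62.3 in NZBWF1, so NZW lay below the other strains (log2 0.69 for NZB over NZW, SE 0.16, adjusted p = 1.211e-03, background 11.2%). In plasmacytoid dendritic cells S100a4 rested on 4 to 8 UMIs per NZB mouse and 4 to 15 per NZW mouse (log2 -1.72, SE 0.49, adjusted p = 0.01114), and the call was lost without NZB 1 (-1.49, adjusted p = 0.0921) or NZW 3 (-1.07, adjusted p = 0.4777). In non-dividing monocytes, its main class, S100a4 did not pass (log2 0.06, SE 0.13). S100a6 was higher in NZB in precursors and promyelocytes (0.41, adjusted p = 5.469e-03), non-dividing monocytes (0.34, adjusted p = 0.01491) and dividing monocytes (0.30, adjusted p = 0.04494), each without overlap between the parents. The call in non-dividing monocytes was lost without NZB 2 (0.30, adjusted p = 0.08737) or NZW 3 (0.24, adjusted p = 0.1699), and that in dividing monocytes without any one of NZB 2, NZW 1, NZW 2, NZW 3, NZBWF1 2 and NZBWF1 3 (0.22 to 0.36, adjusted p = 0.05426 to 0.3073). With at most 5% mitochondrial UMIs the difference in precursors and promyelocytes was 0.11 and not called (adjusted p = 0.8274), and without monocytes holding a granule transcript those in monocytes were 0.23 and 0.18 and not called (adjusted p = 0.1729 and 0.4044). In mature B cells S100a6 was at 117.8, 182.1 and 404.6 CPM in NZB, from 14 to 62 UMIs, and 92.9, 57.1 and 51.9 in NZW (log2 1.88, SE 0.39, adjusted p = 0.01423, background 3.27%), and its size rests on NZB 3: without that mouse it was 1.09 and not called (adjusted p = 0.1183).

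T cells showed S100a8 and S100a9 in single mice. S100a8 was at 1044.6, 2231.1 and 262.8 CPM in NZB T cells and at 105.4 to 390.5 in the 6 other mice, and S100a9 at 2168.6, 4059.9 and 515.9 against 184.5 to 426.2. NZB 1 and NZB 2 stood apart, with 59 and 34 T cells, and the top 5% of these cells carried 93.5% and 91.0% of their S100a8 UMIs and 91.6% and 91.4% of their S100a9 UMIs. The share of T cells with an S100a8 UMI at 1000 UMIs was 11.9% to 25.4% in NZB and 17.7% to 33.3% in NZW. S100a9 did not overlap between NZB and the other strains, and neither gene was called (adjusted p = 0.4884 for S100a8 and 0.3833 for S100a9).

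The cross was set against each parent and against their mean. These contrasts share the NZB and NZW mice with the comparison above, so their calls are not separate evidence. Against NZB, 10 of 86 pairs were called in NZBWF1, all lower, against a background of 3.00%. The class backgrounds were 5.86% in dividing and 10.6% in non-dividing monocytes, 3.68%, 3.37% and 2.79% in dividing immature, non-dividing immature and mature neutrophils, and 2.76% in precursors and promyelocytes. The calls were S100a11 in both dividing and non-dividing monocytes and in both immature neutrophil classes, S100a6 in non-dividing immature and mature neutrophils and in precursors and promyelocytes, S100a10 in non-dividing monocytes, and S100a8 and S100a9 in dividing monocytes. The last 2 were not called without monocytes holding a granule transcript (log2 -1.64, adjusted p = 0.227, and -0.81, adjusted p = 0.64). S100a11 in non-dividing monocytes was lower by 1.16 (log2 -1.16, SE 0.12, adjusted p = 6.041e-11) and S100a6 in non-dividing immature neutrophils by 1.32 (log2 -1.32, SE 0.18, adjusted p = 3.309e-04). This count moved with the mice used: it was 4 without NZB 2, 5 without NZBWF1 1 and 6 without NZBWF1 2. It was higher with the replicate number added to the fit as a block, given below. Against NZW 1 of 86 pairs was called, S100a10 in plasmacytoid dendritic cells (log2 -0.77, SE 0.14, adjusted p = 2.286e-05), against a background of 0.961% over all tests and 2.24% in that class.

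Against the mean of its parents NZBWF1 had 2 of 86 pairs called, S100a11 (log2 -0.57, SE 0.10, adjusted p = 3.418e-04) and S100a10 (log2 -0.42, SE 0.09, adjusted p = 4.996e-03), both lower and both in non-dividing monocytes. The background was 0.382% over all tests and 1.37% in that class, and 15 of 86 pairs had an unadjusted p under 0.05. The count was 4 without NZB 3 and 5 without the filter on low counts. On a log2 scale from 0 at NZW to 1 at NZB, NZBWF1 lay at 0.03 for S100a11 and at -0.23 for S100a10 there. The median place of the 1217 genes called between the parents in that class was 0.22, with a quartile range of 0.05 to 0.40. S100a11 lay at -0.02 in dividing monocytes and 0.05 in dividing neutrophils, and S100a6 at 0.12 in non-dividing immature and 0.29 in mature neutrophils (class medians 0.33, 0.39, 0.38 and 0.37). Among the members' pairs called between the parents, S100a6 in non-dividing monocytes lay nearest NZB, at 0.83. S100a4 in precursors and promyelocytes came next, at 0.73 (class median 0.44, quartiles 0.27 and 0.60). S100a10 in plasmacytoid dendritic cells followed at 0.62, within the quartiles of its class (median 0.55, quartiles 0.37 and 0.74).

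**Figure D5:**
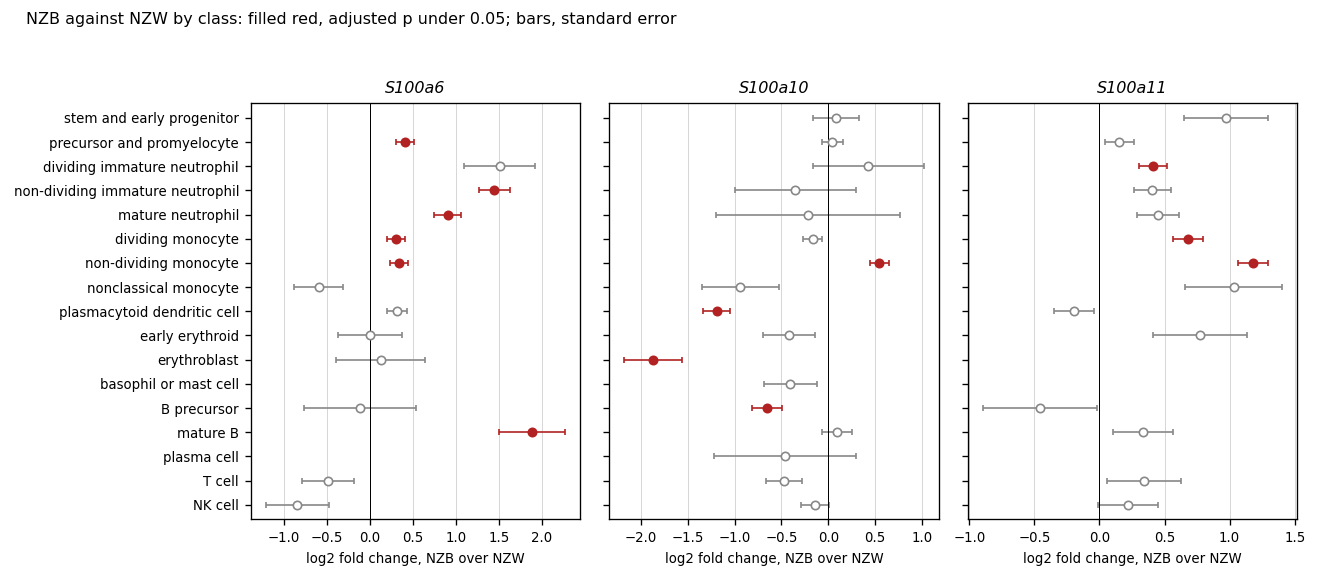
Log2 fold change of NZB over NZW (points, with SE bars) of S100a6, S100a10 and S100a11 in each class tested (rows), with calls at an adjusted p under 0.05 filled. S100a6 and S100a11 calls all lie above 0, and S100a10 calls lie on both sides of 0.

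Genes that work with the S100 proteins were counted from lists, which, like the members, had been chosen with earlier results known. The list of other S100 family genes held 12 counted genes. Among them was S100pbp, which is named for an S100-binding protein and is not itself an S100 gene. Of the 12 genes 3 could be tested in any class, and 3 of their 27 tests were called, all higher in NZB, beside the 7.53% of all tests. S100a13, which takes part in the release of a fibroblast growth factor, was higher in non-dividing monocytes (0.65, adjusted p = 2.342e-04), and S100a1 in dividing neutrophils (0.48, adjusted p = 0.03039). Of 75 annexin tests 14 were called (18.7%, 10 higher and 4 lower, median 0.02). The S100a11 partner Anxa1 was higher in NZB non-dividing monocytes (0.58, adjusted p = 2.962e-04), the S100a10 partner Anxa2 in non-dividing immature neutrophils (0.54, adjusted p = 3.565e-03) and Anxa7 in dividing neutrophils (0.51, adjusted p = 0.02651), while Anxa6 was lower in plasmacytoid dendritic cells (-0.98, adjusted p = 4.372e-05).

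Among partners, targets and receptors 30 of 212 tests were called (14.2%), 15 in each direction, with a median of 0.08. Cybb, the catalytic subunit of the phagocyte oxidase to which S100a8 and S100a9 deliver arachidonic acid, was lower in NZB non-dividing monocytes (-1.14, adjusted p = 2.274e-12), and its partners in plasmacytoid dendritic cells went both ways (Rac2 -0.62, adjusted p = 7.621e-07, and Cyba 0.59, adjusted p = 1.12e-05). The S100a6 binder Cacybp was higher in NZB dividing monocytes (0.80, adjusted p = 9.005e-06). Of regulators of granulocyte and monocyte genes 29 of 93 tests were called (31.2%, 10 higher and 19 lower, median -0.13). Irf8, which directs monocyte and dendritic cell fate, was lower in NZB dividing monocytes (-1.05, adjusted p = 1.358e-10), where Stat3 was higher (0.92, adjusted p = 1.841e-05). Cebpb (0.78, adjusted p = 1.255e-05) and Cebpd (0.79, adjusted p = 1.84e-05), 2 C/EBP family factors, were higher in non-dividing ones. The other 4 called there were lower, Runx1 (-1.004), Cebpe (-1.09), Klf4 (-0.46) and Irf8 (-0.43), and were named after their values were seen where the naming rule did not take them. Of other small EF-hand genes 9 of 146 were called, a share below that of all tests (6.16% against 7.53%, 7 higher and 2 lower, median 0.06), among them Capn1 (-0.86) lower in non-dividing monocytes, and Sri (0.69) higher in plasmacytoid dendritic cells.

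Against NZB, NZBWF1 was lower for S100a13 and Cebpb and higher for Cybb and Ahnak in non-dividing monocytes, and in dividing monocytes lower for Cacybp, Stat3, Lcp1 and Tlr4 and higher for Irf8 and Runx1. The lists had 1 of 27, 6 of 75, 17 of 212, 9 of 93 and 5 of 146 tests called in this contrast, in the order above (3.70%, 8%, 8.02%, 9.68% and 3.42%), beside 3.00% of all tests. Against the mean of the parents 2 of the 212 tests of partners, targets and receptors were called (0.943%), Ahnak (0.36) and Cybb (0.33), both higher in NZBWF1 non-dividing monocytes, beside 0.382% of all tests and 1.37% in that class.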

How the data were processed

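Marrow cells of 9 mice had been run on the 10x Chromium 3′ kit and sequenced on a NextSeq instrument. The authors demultiplexed the reads and made UMI counts per gene and barcode with Cell Ranger 3.1.0 (count, then aggr, which merged the 9 libraries into 1 matrix) on build mm10, with bcl2fastq 2.20, and deposited the counts of called barcodes and of all barcodes without normalization. The sources used here do not give whether the merge brought the libraries to 1 depth. Barcodes were assigned to mice by reading their suffix as the line of the merge list, the way Cell Ranger aggr numbers libraries. The files used here do not state this order, and every strain label of a cell rests on it.

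Barcodes were kept from 1000 UMIs and 500 genes upward if mitochondrial UMIs made up 10% or less, and were gated by marker UMIs. Sums of counts per class and mouse (at least 10 cells) were tested with edgeR 4.0.16 in R 4.3.3 (TMM normalization, filterByExpr, quasi-likelihood fit over all 3 strains, Benjamini-Hochberg adjustment per class and contrast). Steps between classes were tested within mice by exact sign flips on log2(CPM + 10), adjusted by the same method over their family, and ratios of UMIs by exact permutation of mice. All tests were two-sided. On simulated data with known changes, the edgeR step recovered 70.8% of log2 changes of 1 and 92.8% of those of 2 in non-dividing monocytes (6819 genes), and 59.6% and 98% in plasmacytoid dendritic cells (6664 genes). Unchanged genes made up 5.95% and 3.80% of its calls in these classes, respectively. Alternatives covered the gates, cell filters, scaling, DESeq2 1.42.0, free RNA, the pseudocount, a replicate block and each mouse left out. Python 3.11.15, numpy 2.4.6, pandas 2.3.3, scipy 1.17.1 and matplotlib 3.10.9 were used.

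The members and the gene lists were chosen with earlier results of these data known. Named genes are the 6 members, the 5 genes most like each, and per list up to 4 genes called in the same contrast and class as a member (by smallest adjusted p) and up to 4 by highest CPM. Sequences and starts are from RefSeq on GRCm38.p6. The values of 1 listed gene are not reported here.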

Additional observations from a re-analysis of the deposited data

Results flagged for a closer look

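In 4 pairs of classes a member differed between the parent strains in opposite directions, and the difference between the 2 effects was computed mouse by mouse on the log2(CPM + 10) scale. S100a10 was higher in NZB than in NZW in non-dividing monocytes and lower in plasmacytoid dendritic cells, effects that differed by 1.703. Set against erythroblasts the effect in non-dividing monocytes differed by 1.763, and set against B precursors by 1.147. S100a4 was higher in NZB in precursors and promyelocytes and lower in plasmacytoid dendritic cells, a difference of 1.659, with few S100a4 UMIs in the latter class. Each gave p = 0.1 in an exact two-sided permutation of the 3 NZB and 3 NZW mice, the smallest that 3 against 3 mice allow. The pairs were picked for their opposite calls, and the monocyte values are shared by 3 of them.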

How the results depend on the processing

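S100a11 in both monocyte classes, S100a10 in non-dividing monocytes, plasmacytoid dendritic cells and erythroblasts, and S100a6 in non-dividing immature and mature neutrophils kept the direction and the call of NZB against NZW under every alternative run on them (17 to 20 each). The number is lower where a pair could not be tested under an alternative, which is not counted as kept. The counts of member and class pairs called moved more. NZB against NZW gave 11 instead of 17 at a limit of 5% mitochondrial UMIs, and 11 (without NZW 3) to 19 with 1 mouse left out. At the 5% limit some pairs could not be tested: 29 member results had a value there, against 32 with 1 mouse left out. NZBWF1 against NZB gave 4 (without NZB 2) to 11 instead of 10, and NZBWF1 against NZW gave 2 instead of 1 at 5% mitochondrial UMIs and 1 to 2 with 1 mouse left out. Against the mean of the parents there were 5 instead of 2 without the filter on low counts and 2 to 4 (without NZB 3) with 1 mouse left out. Of neighbouring classes in the order of levels, 16 pairs instead of 25 passed at 5% mitochondrial UMIs, and 17 to 20 with 1 mouse left out, where the smallest possible p is larger. Without monocytes that held a granule transcript, a choice made after seeing the data, S100a9 in dividing monocytes was at -0.047 (SE 0.52), within 1 SE of 0. The cause was not tested for these changes.

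The log2 S100a8 to S100a9 ratio of NZB over NZW in non-dividing monocytes was 1.01 instead of 1.17 with cells of 2 gates kept and 1.07 to 1.25 with 1 mouse left out. Over NZBWF1 it was 1.51 instead of 1.22 with free RNA subtracted, 1.01 without granule-transcript cells and 1.12 to 1.27 with 1 mouse left out. In dividing monocytes the ratio of NZB over NZW was 1.07 instead of 0.32 without granule-transcript cells (0.08 to 0.64 with 1 mouse left out). Over NZBWF1 it was -0.10, against 0.41 at 2 times the marker minimum, 0.32 with cells of 2 gates kept, -0.66 with free RNA subtracted and 0.71 without granule-transcript cells (-0.20 to 0.07 with 1 mouse left out).

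Deviations of same-numbered mice from their strain means correlated at -0.02 to 0.14, over 0.1 in 2 of 9 pairs. Differently numbered mice gave -0.13 to 0.08, and 6 of 9 mice correlated best with their own number. Median depth in dividing immature neutrophils went with the number, at 5130, 4707 and 4932 UMIs in NZB 1, NZW 1 and NZBWF1 1. Mice numbered 2 had 3184, 3212 and 3425, and mice numbered 3 had 3639, 3429 and 4005. Whether the numbers mark a batch was not tested, and the main fit held no block. With a replicate block 16 pairs were called in NZBWF1 against NZB, 5 against the mean of the parents, 19 in NZB against NZW and 1 in NZBWF1 against NZW. Over all genes DESeq2 made 3734 calls in NZB against NZW where edgeR made 6587, 1373 against 2624 in NZBWF1 against NZB, and 485 against 841 in NZBWF1 against NZW.

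Beside S100a8 and S100a9 in dividing monocytes, given in the report, calls of NZB against NZW that were lost with a mouse left out were S100a10 in B precursors (NZB 2, NZB 3, NZW 1 or NZW 3), S100a11 in dividing immature neutrophils (NZW 2), S100a4 in plasmacytoid dendritic cells (NZB 1 or NZW 3), and S100a6 in non-dividing monocytes (NZB 2 or NZW 3), dividing monocytes (all but NZB 1, NZB 3 and NZBWF1 1) and mature B cells (NZB 3, NZW 2 or NZBWF1 1). Low UMI counts limit S100a4 in plasmacytoid dendritic cells, S100a10 in erythroblasts and S100a6 in mature B cells.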

Other observations

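Outside the myeloid line the same genes also changed along lineages. From B precursors to mature B cells S100a6 rose by 2.05 ± 0.95 on the log2 scale (SD over 9 mice), S100a11 by 1.80 ± 0.39 and S100a10 by 0.77 ± 0.36, each in 9 of 9 mice (exact sign-flip test, adjusted p = 0.008113). Few mature B cells held S100a6: a mean of 9.63% had a UMI (7.65% at 1000 UMIs), and the top 5% of the cells carried 41.9% to 66.7% of its UMIs in NZB, 97.9% to 100% in NZW and 89.1% to 95.8% in NZBWF1. NK cells held less S100a6 than T cells in 9 of 9 mice (log2 -1.19 ± 1.01) and more S100a10 in 9 of 9 mice (0.35 ± 0.35), with the same adjusted p.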
